A study of Mus musculus with 6 samples.

Results

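The genes described here are the Rab GTPases and the subunits of the TRAPP complex, the switches and activators that direct vesicles between the membrane compartments of the cell. Members were all protein-coding genes with a mouse symbol made of Rab and a number or Trappc and a number, with at most 1 letter after it, which gave 59 Rab genes and 15 TRAPP genes. They make up 74 of the 55335 gene identifiers measured. RNA was taken from RAW 264.7 cells, an established mouse macrophage line of wild-type genotype per the labels. In 3 libraries the cells were given lipopolysaccharide (LPS), a bacterial cell wall component, at 200 ng/ml for 8 h, and within that time 10 min of low-intensity ultrasound (50 mW/cm², 1 MHz, 20% duty cycle, pulses of 200 µs repeated at 1 kHz). The 3 libraries of the LPS group had the same LPS exposure and no ultrasound. Both groups were thus exposed to LPS, and untreated cells were not analysed here. No label tells if each library had a culture of its own, and the p-values cover only library-to-library spread, possibly technical.

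A Rab protein binds a membrane through a prenyl anchor and cycles between a GDP-bound and a GTP-bound state. Guanine nucleotide exchange factors (GEFs) load GTP, effectors such as tethers and motor adaptors read the loaded form, and GTPase-activating proteins (GAPs) end the signal. TRAPP is a multisubunit GEF: a shared core is joined by further subunits to form TRAPPII or TRAPPIII, which act mainly at the Golgi and on Rab1 and Rab11. In macrophages Rab proteins steer phagosomes and macropinosomes towards lysosomes, carry cytokines to the surface and set how much of the LPS receptor TLR4 is displayed or degraded.

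Expression is given in FPKM, a fragment count scaled by transcript length and library size, so levels of different genes can be set side by side. Differences are log2(FPKM + 1) of the ultrasound group minus that of the LPS group, ± the standard error, a scale that understates the change of low genes. The 8 macrophage markers all had a mean above 1 FPKM, and none of the 8 skeletal muscle, 5 fibroblast, 5 T cell, 4 B cell and 5 neutrophil markers did. The FPKM sums of the libraries lay between 278871 and 292200. LPS library 2 stood apart on principal component 1, at 28.8 against -17.7 to 2.03 for the other 5. The summed level of 12 LPS response genes was 1201, 2181 and 1219 FPKM in ultrasound libraries 1, 2 and 3, against 1930, 4162 and 1991 FPKM in the LPS libraries, so library 2 was the highest of each group. The part of this in the results below was not tested, and values without LPS library 2 are given for the members where a statement turns on it. In bulk RNA, fewer cells and less RNA per cell cannot be told apart.

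Of the 74 members, 54 averaged 1 FPKM or more and were tested, 40 Rab and 14 TRAPP genes. Rab36, Rab38, Rab9b, Rab27b and Rab3c were listed at 0 in all 6 libraries, and the other 15 untested members were above 0 in at least 1. Among these 15, Rab27a, which drives the release of secretory lysosomes, was the only one to reach 1 FPKM in any library. It had 0.854, 0.957 and 0.859 FPKM in ultrasound libraries, against 0.927, 1.14 and 1.10 FPKM in LPS libraries. The other 14 (Rab39, Rab25, Rab33a, Rab6b, Rab30, Rab26, Rab42, Rab39b, Rab40b, Rab44, Rab3b, Rab37, Rab17 and Trappc3l) reached at most 0.913 FPKM, a value of Rab39 in ultrasound library 2.

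The 8 members with the smallest p-values are Rab7b (ENSMUSG00000052688, chromosome 1), Rab34 (ENSMUSG00000002059, chromosome 11), Rab1b (ENSMUSG00000024870, chromosome 19), Rab9 (ENSMUSG00000079316, chromosome X), Trappc1 (ENSMUSG00000049299, chromosome 11), Rab21 (ENSMUSG00000020132, chromosome 10), Rab6a (ENSMUSG00000030704, chromosome 7) and Rab2a (ENSMUSG00000047187, chromosome 4). No Rab or TRAPP gene passed limma with Benjamini-Hochberg adjustment over the 11270 tested genes, where the smallest adjusted p of a member was 0.18. Among all tested genes 2 passed, 0.0177%. With the replicate number as a block 0 members passed, the smallest adjusted p being 0.058, beside 0.115% of all tested genes (0.0355% higher and 0.0799% lower). At an unadjusted limma p below 0.05 there were 8 members, 14.8% of the 54 tested, beside 15.3% of all tested genes. Of these 8, 6 were higher and 2 lower with ultrasound, beside 6.18% higher and 9.16% lower among all tested genes. The 3 ultrasound libraries lay all above or all below the 3 LPS libraries for 17 members, 13 above and 4 below, or 31.5%, against 23.2% of all tested genes (9.8% above and 13.4% below). Of the tested members 34 were higher and 20 lower with ultrasound, beside 46.1% higher among all tested genes. Their median log2 difference was 0.11, beside -0.02 over all tested genes. It was 0.03 for the 40 Rab genes (60% higher) and 0.12 for the 14 TRAPP genes (71.4% higher). With each library scaled to the same FPKM sum, 5 members (9.26%) had an unadjusted p below 0.05, 3 higher and 2 lower, beside 15.4% of all tested genes. Without LPS library 2 there were 3 members (5.56%), beside 10.4% of all genes: Rab7b, Rab34 and Rab1b stayed below 0.05, while the p was 0.077 for Rab9, 0.080 for Trappc1, 0.081 for Rab21, 0.098 for Rab6a and 0.075 for Rab2a (limma, unadjusted). There were 4 members (7.41%) without ultrasound library 1 and as many without ultrasound library 3, beside 8.95% and 10.8% of all genes.

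**Figure D1:**
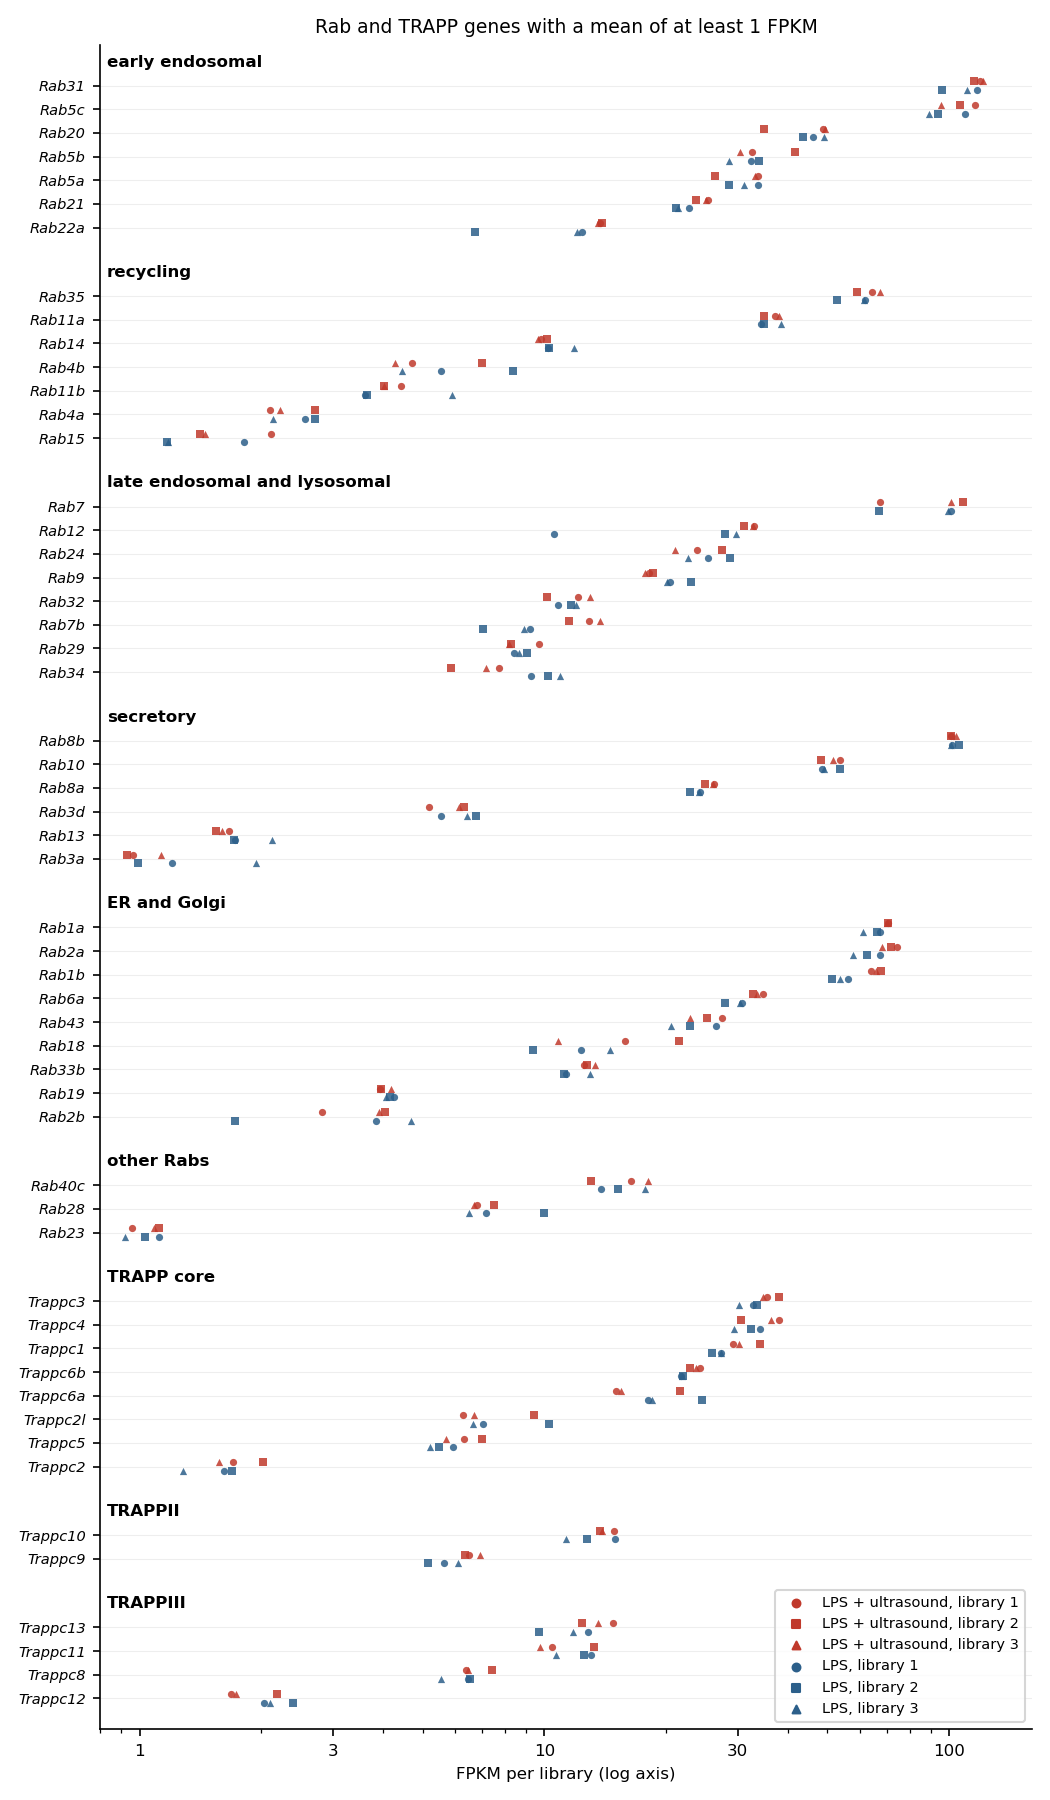
FPKM of the 54 tested Rab and TRAPP genes in each of the 6 libraries (x axis, log scale), grouped by membrane route and ordered by mean level. Red points are LPS plus ultrasound and blue points LPS, with the shape giving the library number. For most genes the points of both groups lie close together, while single libraries stand out for Rab12 (LPS library 1, 10.6 FPKM), Rab22a (LPS library 2, 6.73 FPKM) and Rab7 (ultrasound library 1 and LPS library 2, 67.3 and 66.9 FPKM).

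The set of Rabs that these macrophages expressed was led by a few genes. Of the 74 members, 3 had a mean of at least 100 FPKM, 6 lay between 50 and 100, 26 between 10 and 50, 19 between 1 and 10, and 20 below 1. The 5 most abundant Rabs, Rab31, Rab8b, Rab5c, Rab7 and Rab1a, made up 40.1% ± 1.11 of the summed Rab level in ultrasound libraries and 40.4% ± 1.66 in LPS libraries (SD, n = 3 each). Early endosomal Rabs held the largest share, 30.6% ± 1.18 with ultrasound and 30.3% ± 1.28 with LPS alone. The summed level of all Rab genes was 1219, 1219 and 1220 FPKM in the ultrasound libraries, against 1175, 1100 and 1151 FPKM in the LPS libraries. All 3 ultrasound sums lay above the 3 LPS sums, and the lowest value was that of LPS library 2. These sums were not scaled to the FPKM total of the library, 292200 in ultrasound library 2 and 278871 in LPS library 1. As a share of that total, ultrasound library 2 lay below LPS library 1, so the groups overlapped.

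Promoter sequences are shown for 4 members with an unadjusted p below 0.05, a pair that was higher with ultrasound (Rab1b, Rab6a) and a pair that was lower (Rab34, Rab9), so that a reader can compare their control regions. They are RefSeq windows on GRCm38.p6, from 250 bases before to 50 bases after an annotated start, written 5′ to 3′ along the gene. Capitals mark a match to the GC box, whose letters were CCGCCC, to the box named for its letters CCAAT, to the E-box with the letters CACGTG, to the TATA box with the letters TATAAA or to the AP-1 site with the letters TGACTCA, each searched on both strands. These matches do not overlap one another in the windows shown. The windows are chr19:5106947-5107246 (minus strand) for Rab1b, chr7:100607336-100607635 (plus strand) for Rab6a, chr11:78188177-78188476 (plus strand) for the first Rab34 start, chr11:78188498-78188797 (plus strand) for the second, and chrX:166479818-166480117 (minus strand) for Rab9.
Rab1b: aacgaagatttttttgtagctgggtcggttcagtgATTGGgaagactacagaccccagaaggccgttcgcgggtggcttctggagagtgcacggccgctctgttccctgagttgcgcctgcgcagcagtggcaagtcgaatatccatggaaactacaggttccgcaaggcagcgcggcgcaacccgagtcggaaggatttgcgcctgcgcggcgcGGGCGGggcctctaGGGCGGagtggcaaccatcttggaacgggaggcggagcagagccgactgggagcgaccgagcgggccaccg
Rab6a: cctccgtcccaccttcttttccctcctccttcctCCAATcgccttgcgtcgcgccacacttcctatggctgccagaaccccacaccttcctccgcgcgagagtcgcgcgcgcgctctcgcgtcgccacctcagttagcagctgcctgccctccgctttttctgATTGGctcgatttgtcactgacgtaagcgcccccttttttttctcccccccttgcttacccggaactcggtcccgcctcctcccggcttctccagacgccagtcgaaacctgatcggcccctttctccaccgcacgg
Rab34, first start: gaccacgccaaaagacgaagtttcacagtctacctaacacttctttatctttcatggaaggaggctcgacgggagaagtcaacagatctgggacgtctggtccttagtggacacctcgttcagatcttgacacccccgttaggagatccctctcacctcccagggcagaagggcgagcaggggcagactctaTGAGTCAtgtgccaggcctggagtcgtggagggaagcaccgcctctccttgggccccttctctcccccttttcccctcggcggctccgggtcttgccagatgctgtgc
Rab34, second start: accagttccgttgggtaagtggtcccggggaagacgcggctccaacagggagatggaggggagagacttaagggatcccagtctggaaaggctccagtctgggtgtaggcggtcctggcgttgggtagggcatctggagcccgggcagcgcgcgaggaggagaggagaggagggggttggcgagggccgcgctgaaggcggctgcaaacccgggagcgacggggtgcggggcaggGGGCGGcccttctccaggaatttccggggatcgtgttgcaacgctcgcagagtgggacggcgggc
Rab9: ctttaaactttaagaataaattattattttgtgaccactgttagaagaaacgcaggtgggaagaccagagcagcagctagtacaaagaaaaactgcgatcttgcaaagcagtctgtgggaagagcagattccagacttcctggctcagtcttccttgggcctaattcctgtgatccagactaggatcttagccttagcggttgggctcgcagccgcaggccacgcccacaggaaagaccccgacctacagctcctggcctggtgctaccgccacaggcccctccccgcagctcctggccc

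Rab1b carried 2 GC boxes and 1 CCAAT box, and Rab6a 2 CCAAT boxes. The first Rab34 window held 1 AP-1 site and the second 1 GC box, while none of the 5 motifs was found in the Rab9 window. Windows were found for 59 of the 74 members, 71 windows in all. A GC box was present in 48 of these, 67.6%, beside 46.2% of the windows of protein-coding genes and 35.6% of all windows. A CCAAT box was present in 40.8% of the member windows, 38.2% of coding windows and 37.4% of all windows. An E-box was found in 11.3%, 7.83% and 7.15% of these, a TATA box in 8.45%, 12.6% and 13.6%, and an AP-1 site in 4.23%, 4.66% and 5.20%. These matches are descriptions of letters, and several windows of 1 gene share sequence.

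Rabs of the endoplasmic reticulum (ER) and Golgi leaned higher with ultrasound. Of 9 tested members 8 had a positive difference (46.1% of all tested genes did), with a median log2 difference of 0.12. At an unadjusted limma p below 0.05 there were 3, or 33.3%, all higher, beside 15.3% of all tested genes (6.18% higher). Without LPS library 2 there were 7 with a positive difference and 1 with an unadjusted p below 0.05, beside 10.4% of all tested genes. Without both libraries numbered 2 there were 6 and 1, beside 14.3% of all tested genes at that p. Rab1b, which with Rab1a starts ER-to-Golgi transport, had 64.0, 67.9 and 65.8 FPKM in ultrasound libraries, against 56.1, 51.2 and 53.6 FPKM in LPS libraries. Every ultrasound library was above every LPS library, by 1.23-fold between the means (log2 difference 0.29 ± 0.07, unadjusted p = 0.0031, limma with Benjamini-Hochberg adjusted p = 0.18). Its paralogue Rab1a was at a similar level, with 70.4, 70.5 and 70.0 FPKM in ultrasound libraries, against 67.5, 66.1 and 61.0 FPKM in LPS libraries. The groups did not overlap in FPKM as deposited, but did once each library was scaled to the same FPKM sum. The difference was smaller than that of Rab1b (0.11 ± 0.07, limma with Benjamini-Hochberg adjusted p = 0.43). Rab1b therefore made up 48.4% ± 0.725 of the Rab1 total with ultrasound and 45.3% ± 1.56 with LPS alone (SD, n = 3 each).

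Rab2a, which acts between ER and Golgi and in the delivery of cargo to lysosomes, had 74.4, 71.6 and 68.1 FPKM in ultrasound libraries, against 67.2, 62.7 and 57.9 FPKM in LPS libraries. The groups were separate, but the lowest ultrasound library lay within 1 FPKM of the highest LPS library (log2 difference 0.19 ± 0.08, unadjusted p = 0.048). With each library scaled to the same FPKM sum these libraries changed order, and the unadjusted limma p was 0.090. Rab6a, the Golgi Rab of retrograde transport and of carriers to the surface, had 34.6, 32.8 and 33.4 FPKM with ultrasound, against 30.7, 27.9 and 30.4 FPKM with LPS alone. For Rab6a no libraries of the groups overlapped (0.18 ± 0.07, unadjusted p = 0.040), while the adjusted p was 0.32 for Rab2a and 0.31 for Rab6a (limma with Benjamini-Hochberg adjustment). In the annotation 708 of the 3728 exon bases of Rab6a overlap the opposite-strand gene Mrpl48, listed at a mean of 1.21 FPKM. Rab43, Rab33b and Rab18 were higher in 3, 3 and 2 of the 3 same-numbered pairs of libraries. Rab18, a Rab of ER and lipid droplets, varied within the groups by more than between them, with 15.8, 21.5 and 10.8 FPKM in ultrasound libraries, against 12.3, 9.38 and 14.5 FPKM in LPS libraries. Its log2 difference was 0.36 ± 0.25, but 0.20 without LPS library 2, 0.13 without ultrasound library 2 and -0.02 without both. Rab19 and Rab2b had overlapping groups and differences of -0.04 ± 0.08 and 0.11 ± 0.27, and that of Rab2b turned to -0.20 without LPS library 2 and -0.27 without both libraries numbered 2. Values of Rab43 and Rab2b are uncertain, since 75.4% and 59.3% of their exon bases are shared with the gene models Gm45140 and Gm43766.

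The lysosomal route held both the largest positive and the largest negative differences. Among 8 tested late endosomal and lysosomal Rabs 4 were higher and 4 lower with ultrasound, with a median log2 difference of 0.01. At an unadjusted limma p below 0.05 there were 3, or 37.5%, of which 1 was higher and 2 lower. The share of all tested genes was 15.3% (6.18% higher and 9.16% lower). Rab7b, a Rab7 relative that carries receptors between endosomes and the Golgi and promotes the degradation of TLR4 in macrophages, had 12.9, 11.5 and 13.7 FPKM in ultrasound libraries. LPS libraries had 9.24, 7.05 and 8.92 FPKM, all below the lowest ultrasound library. The means differed 1.51-fold (log2 difference 0.55 ± 0.12, unadjusted p = 0.0021), the smallest p of any member, and the gene did not pass adjustment (limma, Benjamini-Hochberg, adjusted p = 0.18). Rab7, the main Rab of fusion with lysosomes, was far more abundant and showed no such separation: it had 67.3, 108 and 101 FPKM with ultrasound, against 101, 66.9 and 99.4 FPKM with LPS alone. One library of each group was far below the others, and the log2 difference of 0.04 ± 0.22 turned to -0.15 without LPS library 2. A processed copy, Rab7-ps1, was listed at 5.25 FPKM, so reads of Rab7 may be divided.

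Rab34, which positions lysosomes and takes part in macropinocytosis, was lower with ultrasound. It had 7.71, 5.89 and 7.18 FPKM in ultrasound libraries, against 9.29, 10.2 and 10.9 FPKM in LPS libraries, with no overlap. The ultrasound mean was 0.684 of the LPS mean (log2 difference -0.49 ± 0.11, unadjusted p = 0.0030, limma with Benjamini-Hochberg adjusted p = 0.18). Rab9, which returns receptors from late endosomes to the Golgi, had 18.1, 18.5 and 17.8 FPKM with ultrasound, against 20.4, 23.1 and 20.1 FPKM with LPS alone. All 3 ultrasound libraries were lower (-0.21 ± 0.08, unadjusted p = 0.030, limma with Benjamini-Hochberg adjusted p = 0.28).

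Rab12, which sends the transferrin receptor to lysosomes, had the largest log2 difference of all members, 0.62 ± 0.35, and it rested on 1 library. Ultrasound libraries had 33.0, 31.2 and 32.8 FPKM, against 10.6, 27.9 and 29.7 FPKM in LPS libraries. The groups did not overlap, but LPS library 1 was far below the other 5, and without it the difference was 0.16. Rab24, Rab29 and Rab32, Rabs of autophagy, of LRRK2 recruitment and of lysosome-related organelles, had overlapping groups and log2 differences of -0.08 ± 0.12, -0.00079 ± 0.09 and 0.02 ± 0.10. Of the exon bases of Rab24 62.4% overlap Prelid1 on the opposite strand, listed at 102 FPKM, and its level of 24.1 ± 3.23 FPKM with ultrasound and 25.6 ± 3.06 with LPS alone (SD, n = 3 each) is uncertain. Strand-specific counting is not stated in the sources used here, so reads of the pair cannot be told apart.

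**Figure D2:**
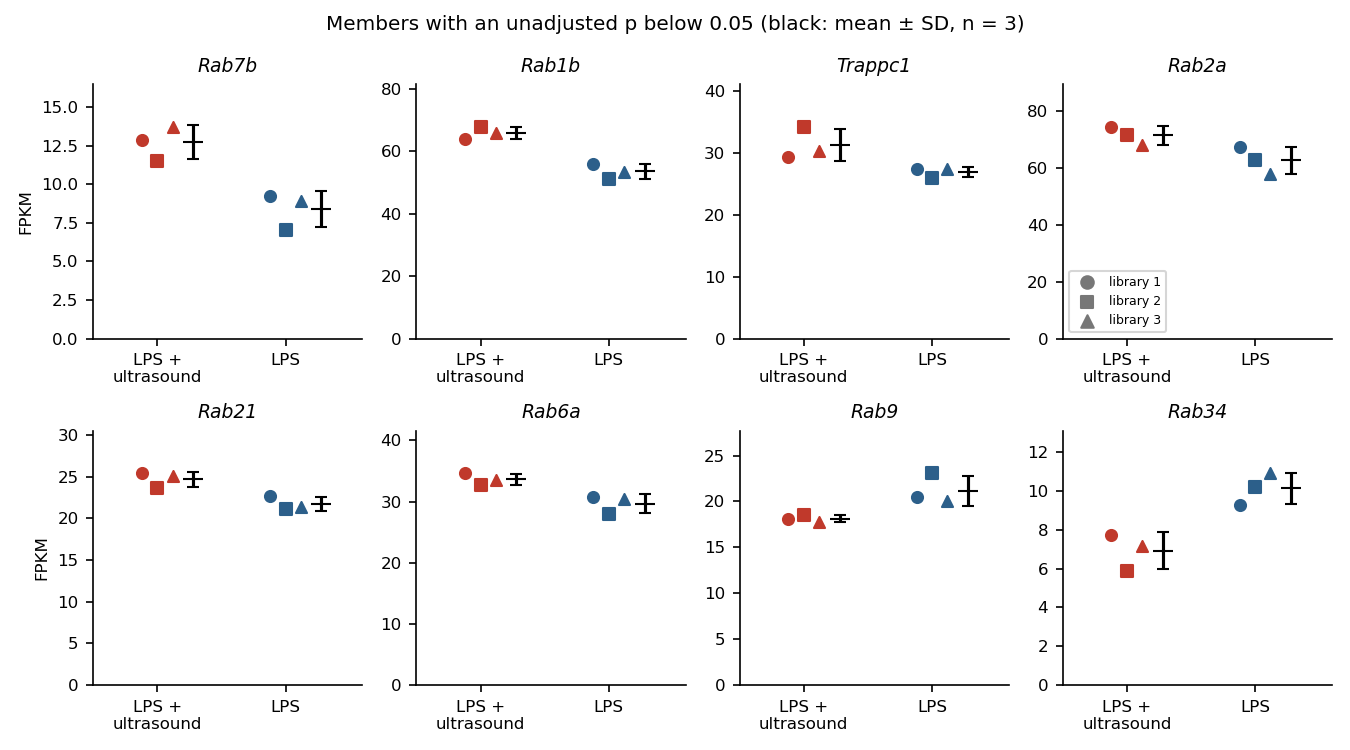
FPKM of the 8 members with an unadjusted limma p below 0.05, LPS plus ultrasound on the left of each panel and LPS on the right. Points are libraries, with the shape giving their number, and the black bars are means ± SD (n = 3). The groups do not overlap in any panel, which the choice of genes by p favours (23.2% of all tested genes do not overlap). With ultrasound 6 genes are higher, led by Rab7b, and Rab9 and Rab34 are lower.

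Early endosomal Rabs were the most abundant group, and all 7 were tested. With ultrasound 5 were higher and 2 lower, with a median log2 difference of 0.13. At an unadjusted limma p below 0.05 there was 1, or 14.3%, beside 15.3% of all tested genes. Without LPS library 2 there was none, beside 10.4% of all tested genes. The 1 member was Rab21, which moves integrins and sorts early endosomal cargo. It had 25.4, 23.7 and 25.1 FPKM in ultrasound libraries, against 22.7, 21.1 and 21.4 FPKM in LPS libraries, a small but complete separation (log2 difference 0.18 ± 0.07, unadjusted p = 0.038, limma with Benjamini-Hochberg adjusted p = 0.30). With each library scaled to the same FPKM sum its groups overlapped, and the unadjusted limma p was 0.083. Rab22a, a sorting Rab of early endosomes, had 13.7, 13.9 and 13.6 FPKM with ultrasound, against 12.4, 6.73 and 12.1 FPKM with LPS alone. Its groups were also separate, yet LPS library 2 set the size of the difference, which was 0.41 ± 0.20 with it and 0.15 without it. Rab31, which shuttles between Golgi and endosomes, was the most abundant member at 119, 115 and 121 FPKM with ultrasound, against 117, 96.0 and 111 FPKM with LPS alone. These groups overlapped (0.14 ± 0.09, limma with Benjamini-Hochberg adjusted p = 0.47), and the difference was 0.057 without LPS library 2.

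The Rab5 paralogues, which define the early endosome and recruit the fusion machinery, had paralogue shares that differed between groups by less than their spread. Rab5c made up 61.6% ± 1.83 of the Rab5 total with ultrasound and 60.8% ± 1.38 with LPS alone, Rab5b 20.3% ± 3.15 and 19.8% ± 1.71, and Rab5a 18.2% ± 2.83 and 19.5% ± 1.35 (SD, n = 3 each). Rab5c itself had 116, 106 and 95.6 FPKM in ultrasound libraries, against 109, 93.9 and 89.2 FPKM in LPS libraries, with overlapping groups (0.12 ± 0.11). Each ultrasound library was above the LPS library of its number, and the limma p with the replicate block was 0.052, unadjusted. Rab20, a Rab of macropinosome and phagosome maturation in macrophages, had 48.6, 34.9 and 49.3 FPKM with ultrasound, against 46.0, 43.6 and 49.0 FPKM with LPS alone. Only ultrasound library 2 was low, and the log2 difference of -0.07 ± 0.14 turned to 0.084 without it.

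Recycling Rabs, which return membrane and receptors to the surface, leaned neither way. Of 7 tested members 3 were higher and 4 lower, with a median log2 difference of -0.04. None had an unadjusted limma p below 0.05, beside 15.3% of all tested genes. Rab35, a Rab of fast recycling, had 64.4, 59.1 and 67.3 FPKM in ultrasound libraries, against 61.9, 52.6 and 61.4 FPKM in LPS libraries (0.12 ± 0.09, and 0.041 without LPS library 2). Rab11a, the marker of the slow recycling endosome, had 37.1, 34.9 and 38.0 FPKM with ultrasound, against 34.3, 34.9 and 38.4 FPKM with LPS alone (0.03 ± 0.07). Both pairs of groups overlapped. Rab14, of the route between Golgi and endosomes, was the one recycling member with separate groups, at 9.80, 10.1 and 9.66 FPKM with ultrasound, against 10.2, 10.2 and 11.8 FPKM with LPS alone (-0.11 ± 0.09, limma with Benjamini-Hochberg adjusted p = 0.55). Rab4b, Rab4a, Rab11b and Rab15 had means between 1.39 and 6.13 FPKM in both groups. Values of Rab4b are uncertain, since 65.0% of its exon bases lie in the gene model Gm21983 on the same strand, and those of Rab11b likewise, since its processed copy Rab11b-ps2 was listed at 5.87 FPKM beside 4.27 for Rab11b itself (means over the 6 libraries).

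Among secretory Rabs 3 genes were abundant, and of 6 tested 2 were higher and 4 lower with ultrasound, at a median log2 difference of -0.04. Rab8b, a Rab of carriers from the Golgi to the surface, had 101, 101 and 104 FPKM in ultrasound libraries, against 101, 106 and 101 FPKM in LPS libraries. It varied the least of the 54 tested members, with a coefficient of variation of 2.16% within the groups against a median of 10.1% over the members, and its log2 difference was -0.01 ± 0.06. Rab10, which carries TLR4 to the macrophage surface, had 53.7, 48.3 and 51.5 FPKM with ultrasound, against 48.5, 53.7 and 49.2 FPKM with LPS alone (0.02 ± 0.07). The groups of both genes overlapped. Rab8a, the less abundant Rab8 paralogue, had 26.2, 24.9 and 26.0 FPKM with ultrasound, against 24.2, 22.9 and 24.1 FPKM with LPS alone, a separation that did not reach the threshold (0.11 ± 0.07, limma with Benjamini-Hochberg adjusted p = 0.44). Its groups overlapped once each library was scaled to the same FPKM sum. Rab3d, the main Rab3 of these cells, averaged 5.89 ± 0.603 FPKM with ultrasound and 6.26 ± 0.623 with LPS alone, and Rab13 and Rab3a reached at most 2.12 FPKM in any library. Of the 13 secretory members 7 were not tested, among them the exocytic pair Rab27a and Rab27b.

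The remaining Rabs, which act at cilia or in protein turnover or have no settled route, gave 3 tested members out of 6. Rab40c, a Rab that joins a ubiquitin ligase, had 16.3, 13.0 and 18.1 FPKM in ultrasound libraries, against 13.8, 15.2 and 17.8 FPKM in LPS libraries (0.01 ± 0.14). Rab28, a ciliary Rab, had 6.81, 7.51 and 6.71 FPKM with ultrasound, against 7.17, 9.96 and 6.50 FPKM with LPS alone, where LPS library 2 was the high one (-0.13 ± 0.15, and 0.03 without that library). Both sets of values overlapped, as did those of the ciliary Rab23, at 1.05 ± 0.0863 FPKM with ultrasound and 1.02 ± 0.0994 with LPS alone (SD, n = 3 each).

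**Figure D3:**
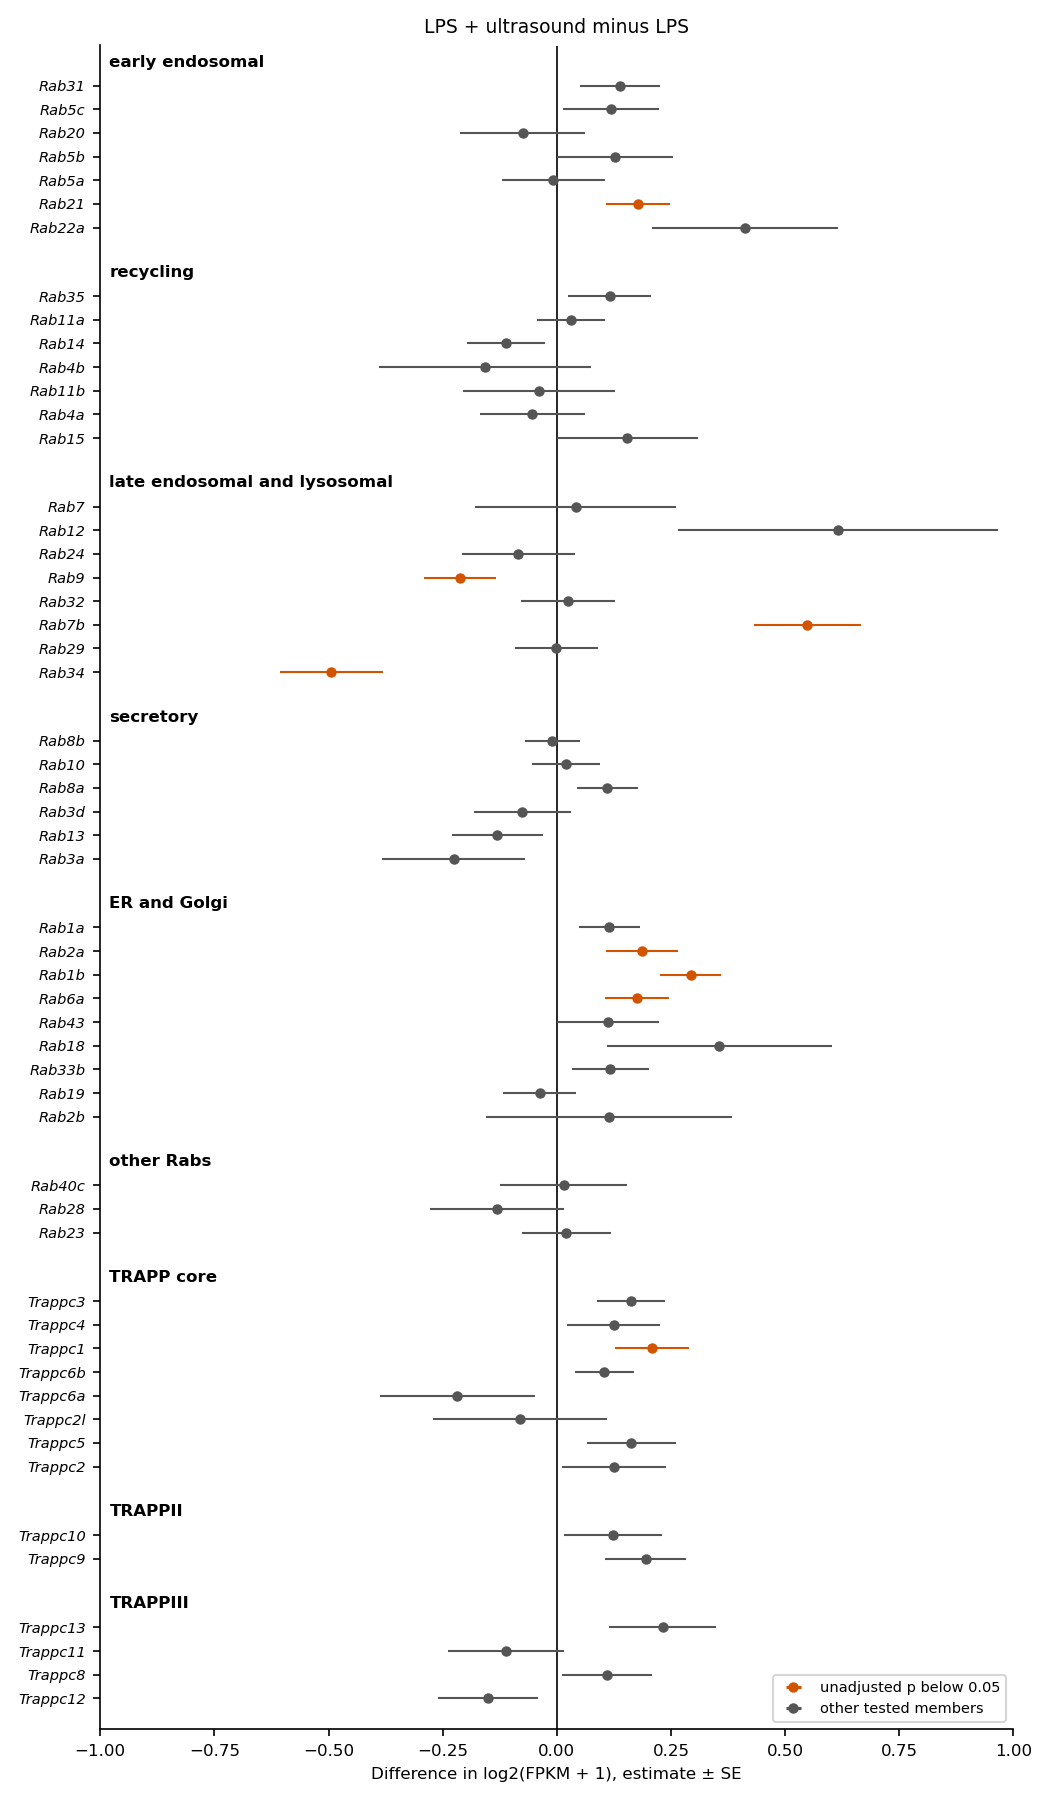
Difference between LPS plus ultrasound and LPS in log2(FPKM + 1) for the 54 tested members (x axis), with its standard error, grouped by membrane route. Orange marks the 8 members with an unadjusted limma p below 0.05; none passed adjustment. ER and Golgi Rabs lie mostly right of 0, at a median of 0.12, and Rab7b and Rab34 lie on opposite sides within the lysosomal group.

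TRAPP subunits were expressed at levels from 1.65 to 34.1 FPKM (means over the 6 libraries), apart from Trappc3l, which had 0.0263 FPKM in ultrasound library 1 and was listed at 0 in the other 5. Of the 14 tested subunits 10 were higher and 4 lower with ultrasound, with a median log2 difference of 0.12. At an unadjusted limma p below 0.05 there was 1, or 7.14%, beside 15.3% of all tested genes. Without LPS library 2 there was no TRAPP gene, beside 10.4% of all tested genes. With the replicate number as a block there were 5, 4 higher and 1 lower, or 35.7%, beside 29.7% of all tested genes. The core subunit gene Trappc1 had 29.2, 34.1 and 30.3 FPKM in ultrasound libraries, against 27.3, 25.9 and 27.3 FPKM in LPS libraries. Its groups were separate (log2 difference 0.21 ± 0.08, unadjusted p = 0.034, limma with Benjamini-Hochberg adjusted p = 0.29), and the difference was 0.12 without both libraries numbered 2. Trappc3, the core subunit that carries a lipid anchor, had 35.5, 38.1 and 34.7 FPKM with ultrasound, against 32.8, 33.4 and 30.2 FPKM with LPS alone, also without overlap (0.16 ± 0.07, limma with Benjamini-Hochberg adjusted p = 0.35). Trappc6b, at 24.3, 22.9 and 23.7 FPKM with ultrasound and 21.8, 21.9 and 21.9 FPKM with LPS alone, had separate groups as well (0.10 ± 0.06).

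The paralogue Trappc6a followed the library number more than the treatment. It had 15.0, 21.6 and 15.5 FPKM in ultrasound libraries 1, 2 and 3, against 17.98, 24.5 and 18.4 FPKM in LPS libraries 1, 2 and 3. Both libraries numbered 2 were the highest of their group, and each ultrasound library was lower than the LPS library of its number (-0.22 ± 0.17, limma with Benjamini-Hochberg adjusted p = 0.55, or 0.081 once the replicate number was a block). Without LPS library 2 the difference was -0.08, and without ultrasound library 2 it was -0.38. Trappc2l was also highest in library 2 of each group, with 6.30, 9.44 and 6.69 FPKM with ultrasound, against 7.04, 10.2 and 6.65 FPKM with LPS alone. Its difference of -0.08 ± 0.19 turned to 0.09 without LPS library 2 and 0.02 without ultrasound library 1. Trappc4, a catalytic core subunit, averaged 35.0 ± 3.84 FPKM with ultrasound and 31.9 ± 2.38 with LPS alone, and 18.9% of its exon bases overlap the ribosomal protein gene Rps25 on the opposite strand, listed at 101 FPKM. Trappc5 and Trappc2 had log2 differences of 0.16 ± 0.10 and 0.13 ± 0.11, with overlapping groups.

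Among the subunits that are particular to 1 complex, those of TRAPPII were both higher and those of TRAPPIII were divided. Trappc9 of TRAPPII had 6.50, 6.36 and 6.91 FPKM in ultrasound libraries, against 5.66, 5.16 and 6.11 FPKM in LPS libraries, with no overlap (0.19 ± 0.09, limma with Benjamini-Hochberg adjusted p = 0.35). Trappc10 of TRAPPII had 14.9, 13.8 and 13.9 FPKM with ultrasound, against 15.0, 12.7 and 11.3 FPKM with LPS alone, which overlapped (0.12 ± 0.11, and from 0.034 without LPS library 3 to 0.22 without LPS library 1). Of TRAPPIII, Trappc13 had 14.7, 12.4 and 13.5 FPKM with ultrasound, against 12.8, 9.68 and 11.8 FPKM with LPS alone. Each pair was higher with ultrasound, yet the groups overlapped (0.23 ± 0.12, and 0.13 without LPS library 2). Trappc8 had a log2 difference of 0.11 ± 0.10, Trappc11 of -0.11 ± 0.13 and Trappc12 of -0.15 ± 0.11, all with overlapping groups. Whether the complexes differ in response was not tested.

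**Figure D4:**
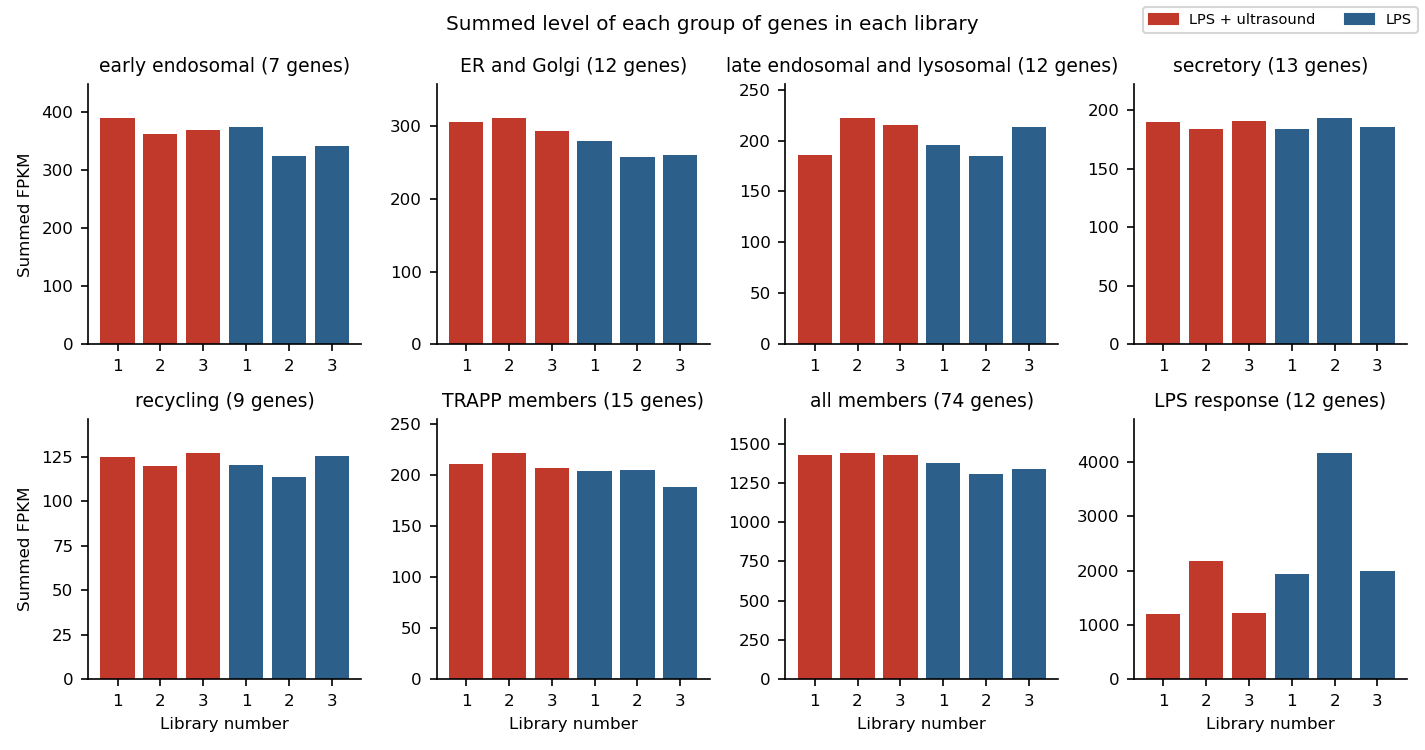
Summed FPKM of each group of genes in each library (y axis, starting at 0), with the LPS plus ultrasound libraries 1 to 3 in red and the LPS libraries 1 to 3 in blue. ER and Golgi Rabs summed to 293 to 311 FPKM with ultrasound, against 257 to 280 with LPS alone. Recycling and secretory sums overlap between the groups, and the 12 LPS response genes peak in library 2 of each group.

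Summed by route, ER and Golgi Rabs reached 306, 311 and 293 FPKM in ultrasound libraries, against 280, 257 and 260 FPKM in LPS libraries, and these did not overlap. The TRAPP genes summed to 211, 221 and 207 FPKM with ultrasound, against 203, 205 and 188 FPKM with LPS alone, also without overlap. The FPKM totals of the libraries were unequal, 286674 in ultrasound library 3 and 278871 in LPS library 1. As shares of the totals the TRAPP sums of these libraries changed order and the groups overlapped, while the ER and Golgi sums stayed apart. Early endosomal, late endosomal and lysosomal, recycling and secretory Rabs overlapped between the groups. These sums are descriptions and carry no test.

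The proteins that load, release and read Rabs were taken from 4 lists of other genes, and none of their members passed adjustment. Of 8 tested prenylation and recycling factors 1 was lower and 0 were higher at an unadjusted p below 0.05, or 12.5%, beside 15.3% of all tested genes. It was Rabggtb, the catalytic subunit gene of the enzyme that attaches the prenyl anchor to Rabs, with 13.2, 13.0 and 13.9 FPKM in ultrasound libraries, against 16.2, 20.9 and 19.6 FPKM in LPS libraries. The groups were well apart (log2 difference -0.46 ± 0.10, unadjusted p = 0.0026, limma with Benjamini-Hochberg adjusted p = 0.18). Rabif, a nucleotide-release factor for secretory Rabs, had a difference of 0.20 ± 0.08 (unadjusted p = 0.050).

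Of 30 tested GEFs 1 was higher and 4 were lower at an unadjusted p below 0.05, or 16.7%, close to the 15.3% of all tested genes. Rgp1, a subunit of the exchange factor of Rab6, had 24.5, 23.9 and 25.3 FPKM with ultrasound, against 20.97, 18.3 and 19.7 FPKM with LPS alone, with separate groups (0.31 ± 0.08, limma with Benjamini-Hochberg adjusted p = 0.20). Its partner Ric1, named after its value was seen, had a difference of -0.16 ± 0.10. Dennd3, an exchange factor of Rab12, averaged 2.76 ± 0.266 FPKM with ultrasound and 3.995 ± 0.467 with LPS alone (-0.41 ± 0.11, limma with Benjamini-Hochberg adjusted p = 0.21).

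Of 28 tested GAPs 0 were higher and 4 lower at an unadjusted p below 0.05, or 14.3%, likewise close to that share. Tbc1d10a, a GAP of Rab27 and Rab35, averaged 6.23 ± 0.349 FPKM with ultrasound and 8.42 ± 0.503 with LPS alone (-0.38 ± 0.08). Tbc1d2, a GAP of Rab7, averaged 3.75 ± 0.546 FPKM with ultrasound and 5.65 ± 0.630 with LPS alone (-0.49 ± 0.12, limma with Benjamini-Hochberg adjusted p = 0.20, and 0.18 for Tbc1d10a). Of 32 tested effectors and tethers 2 were higher and 4 lower at an unadjusted p below 0.05, or 18.8%. The share of all tested genes was 15.3% (6.18% higher and 9.16% lower). Appl1, a Rab5 effector of early endosomes, averaged 7.87 ± 0.294 FPKM with ultrasound and 10.3 ± 0.833 with LPS alone (-0.35 ± 0.09). The Rab1 tether gene Uso1 had 34.1, 36.7 and 34.3 FPKM with ultrasound, against 30.6, 28.1 and 28.1 FPKM with LPS alone, with separate groups (0.27 ± 0.07, limma with Benjamini-Hochberg adjusted p = 0.22, and 0.20 for Appl1). The median log2 differences of the 4 lists were -0.06 for prenylation and recycling factors, -0.06 for GEFs, -0.04 for GAPs and -0.09 for effectors and tethers, beside 0.11 for the Rab and TRAPP genes.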

How the data were processed

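RNA was enriched for poly(A) and sequenced in paired-end mode on an Illumina instrument, per the labels. The authors deposited FPKM values for 55335 mouse gene identifiers and no counts, so the depth behind each value is unknown and no counting interval is given. No aligner, counter or annotation is given in the sources used here. Among the submitters' processing notes is mRatBN7.2, a rat build, and the extraction text speaks of rat muscle, whereas every identifier is a mouse one and the design text names RAW 264.7 cells. Symbols and overlaps came from GENCODE M21. Reads of overlapping genes or copies may have been divided between them.

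limma 3.58.1 (R 4.3.3) was fitted to log2(FPKM + 1) of the genes averaging 1 FPKM or more, using a variance trend, robust moderation and Benjamini-Hochberg adjustment over all 11270 genes, two-sided, at a threshold of 0.05. The fit was tested on simulated data. Deviations from the group means in same-numbered libraries correlated across genes at 0.18, 0.44 and 0.41, against -0.40 to 0.06 in differently numbered ones. These 2 sets of values are not independent, since the deviations within a group cancel out for each gene. The numbers in the titles may pair the libraries, which these values cannot settle. Standard errors and p-values come from the fit without pairing unless the block is named, and the block is an alternative. Other alternatives were the pseudocount, filter, scaling, moderation, array weights and leaving out libraries. Named with values were members with an unadjusted p below 0.05, members with separate groups and a log2 difference of at least 0.3, the 2 most abundant of each route, all tested TRAPP genes and the 2 smallest p of each other list. Further genes were chosen after their values were seen. Members, routes and lists were chosen with earlier results of these data known.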

Additional observations from a re-analysis of the deposited data

How the results depend on the processing

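Rab7b, Rab1b and Rab34 kept their direction and an unadjusted limma p below 0.05 under all 17 alternatives, and the other 5 of the 8 members did so under 7 (Rab2a) to 13 (Rab9). The number of members past adjustment, 0, became 1 with array weights, which was Rab7b (0.51, limma with Benjamini-Hochberg adjusted p = 0.035), when 223 of all tested genes passed. The count of all genes, 2, was 1 with a mean of at least 5 FPKM, 5 with equal FPKM sums, 13 with the replicate block, 6 without both libraries numbered 2 (chosen after the data were seen) and 2 to 8 when single libraries were left out. The 8 members at an unadjusted p below 0.05 became 5 with equal sums (9.26%, beside 15.4% of all genes), 5 without trend and robust moderation (9.26%, beside 15%), 16 with array weights (29.6%, beside 26.1%), 12 with the block (22.2%, beside 29.7%) and 5 without both libraries numbered 2 (9.26%, beside 14.3%). Without single libraries they ranged from 3 without LPS library 2 (5.56%, beside 10.4%) to 9 without LPS library 1 (16.7%, beside 16.6%). The share of all genes thus moved as well. The median of the members, 0.11, was 0.021 without a filter, where 69 members were tested, 0.087 with equal sums, 0.083 with quantile normalization, 0.082 without both libraries numbered 2 and 0.054 to 0.11 without single libraries. The block changed no call of a member at the adjusted threshold.

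Of 54 tested members 17 turned in sign when libraries were left out. Of these, 11 were outside the rule for named genes (Rab2b, Rab4b, Rab5a, Rab5b, Rab11b, Rab18, Rab20, Rab23, Rab24, Rab29 and Rab32). Of the 33 within it, 6 turned under some setting. Rab7 was -0.39 with array weights, -0.28 without both libraries numbered 2 and -0.15 to 0.25 without single libraries. Rab40c was -0.0049 with equal sums and -0.082 to 0.14 without single libraries. Rab10 was -0.00067 with equal sums, -0.0038 with quantile normalization and -0.015 to 0.065 without single libraries. Rab8b was 0.0091 with median-ratio scaling, 0.0065 with quantile normalization, 0.019 without both libraries numbered 2 and -0.023 to 0.011 without single libraries. Without single libraries Trappc2l lay between -0.24 and 0.093 and Rab28 between -0.24 and 0.032. Except for single libraries and the pair left out, the cause was not tested. Without counts, depth could not be weighed. With a mean of at least 5 FPKM 44 members were tested, and the others had no value. By route, 8 of 9 ER and Golgi Rabs were higher with equal sums and median-ratio scaling, 9 with quantile normalization, 7 with array weights and 6 without both libraries numbered 2. The 3 of them at an unadjusted limma p below 0.05 became 1 with equal sums (beside 15.4% of all genes) and 1 without trend and robust moderation (15%). There were 2 with quantile normalization (15.3%), and 3 with median-ratio scaling (15.7%) and array weights (26.1%).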
